A study of Mus musculus with 8 samples.

Results

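Transcripts of the TNF superfamily ligands, their receptors and the adaptors, kinases and inhibitors that act directly at those receptors were examined in isolated white adipocytes. The members are the protein-coding genes of the deposited table whose symbol is Tnf, Fas, Fasl, Tradd, Cflar, Birc2 or Birc3 or begins with Tnfsf, Tnfrsf, Ripk plus a digit or Traf plus a digit. This rule, which uses names and no measured value, gave 53 genes of the 30387 in the table. Of these, 48 averaged 5 or more normalized counts across the 8 libraries and were tested among 18800 genes. The 53 members comprise 14 ligands, 5 receptors with a death domain, 3 decoy receptors, 13 other receptors, 7 TRAF proteins, 3 TRAF3-interacting proteins, 5 adaptors or RIP kinases and 3 inhibitors of death signalling.

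TNF superfamily ligands are mostly trimeric membrane or shed proteins that cluster their receptors. Receptors with a cytoplasmic death domain can assemble complexes with TRADD, FADD and RIPK1 that lead either to NF-kappaB activation or to caspase-8 and RIPK3 driven cell death, and cIAP1, cIAP2 (encoded by Birc2 and Birc3) and cFLIP (Cflar) hold back the death branch. Receptors without a death domain recruit TRAF proteins. In adipose tissue, TNF is known as a macrophage and stromal cell product that rises in obesity and impairs insulin action in adipocytes.

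White adipocytes had been isolated from epididymal fat of male mice, either wild-type littermates (WT) or Ad-Yap/Taz-KO animals, which carry floxed alleles of Yap and Taz and a constitutive Cre driven by the adiponectin promoter, so that deletion is limited to cells in which that promoter is active. Mice received standard diet (SD, named normal chow in the labels) or high-fat diet (HFD) for 4 weeks. The diets began at 5 or 6 weeks of age, on which the sources differ. Each of the 4 groups (WT SD, Ad-Yap/Taz-KO SD, WT HFD and Ad-Yap/Taz-KO HFD) had 2 libraries. The study's legends describe the replicates as separate mice. With 2 libraries against 2, an exact permutation test of a single gene cannot give p below 0.333, so the calls below come from limma, which pools the spread across genes.

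The libraries held 14.0 to 22.3 M reads on genes, estimated from the spacing of the low values, and 1 read was worth 0.795 to 1.13 normalized counts. A value of 0 allows up to 3 reads, which are worth 2.39 to 3.40 normalized counts. These limits cover counting error only. Wwtr1, which encodes TAZ, had 1957 to 2707 normalized counts in the 4 Ad-Yap/Taz-KO libraries and 4743 to 7121 in the 4 WT libraries, and Yap1 had 1549 to 2068 against 2333 to 2776. Adipocyte markers were abundant in every library, with a sum over 10 genes of 95513 to 384146 normalized counts. Macrophage markers were also present in every library, and their sum over 12 genes was 3522 and 3674 in WT HFD, 6198 and 6230 in WT SD, 17707 and 30742 in Ad-Yap/Taz-KO SD, and 31399 and 34018 in Ad-Yap/Taz-KO HFD. The 2 WT HFD libraries had the smallest median absolute log2 difference over the tested genes, 0.25 beside 0.30 to 0.42 in the other groups, although the SD of the difference was smallest in Ad-Yap/Taz-KO HFD (0.851, beside 0.967 in WT HFD). Counts with them merged into a mean are given beside the results. In such bulk samples, fewer cells of a type and less RNA per cell cannot be told apart.

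For 4 members called between genotypes on HFD, chosen after their values were seen as 3 that were higher and 1 that was lower, the 250 bases before the RefSeq transcription start (GRCm38.p6, gene strand) are given, since YAP and TAZ act through TEAD factors. Tnf, Tnfrsf1b and Tnfrsf11a were higher and Fas was lower in Ad-Yap/Taz-KO than in WT libraries on HFD. Capitals mark GGAATG or its reverse complement, the core letters that TEAD factors bind, and TGANTCA, the AP-1 letters. The windows are chr17:35202008-35202257 on the minus strand for Tnf, chr4:145246871-145247120 on the minus strand for Tnfrsf1b, chr1:105780473-105780722 on the plus strand for Tnfrsf11a and chr19:34290409-34290658 on the plus strand for Fas.
Tnf: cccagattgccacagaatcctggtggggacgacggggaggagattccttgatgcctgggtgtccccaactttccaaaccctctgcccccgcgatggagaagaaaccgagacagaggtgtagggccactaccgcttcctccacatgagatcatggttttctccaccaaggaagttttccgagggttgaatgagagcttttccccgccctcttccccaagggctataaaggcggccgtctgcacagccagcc
Tnfrsf1b: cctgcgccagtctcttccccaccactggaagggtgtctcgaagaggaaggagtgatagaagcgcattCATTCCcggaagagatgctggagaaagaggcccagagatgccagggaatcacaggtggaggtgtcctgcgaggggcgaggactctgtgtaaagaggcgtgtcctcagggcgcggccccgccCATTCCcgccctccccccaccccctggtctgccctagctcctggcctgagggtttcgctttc
Tnfrsf11a: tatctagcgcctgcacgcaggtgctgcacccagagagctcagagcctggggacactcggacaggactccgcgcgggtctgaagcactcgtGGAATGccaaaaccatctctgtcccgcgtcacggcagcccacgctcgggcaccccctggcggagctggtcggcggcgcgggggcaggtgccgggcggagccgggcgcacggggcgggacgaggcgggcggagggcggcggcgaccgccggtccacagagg
Fas: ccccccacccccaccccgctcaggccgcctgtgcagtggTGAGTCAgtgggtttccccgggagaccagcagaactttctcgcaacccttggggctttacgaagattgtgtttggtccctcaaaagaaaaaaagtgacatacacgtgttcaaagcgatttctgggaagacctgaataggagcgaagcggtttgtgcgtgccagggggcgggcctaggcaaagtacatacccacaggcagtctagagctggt

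The Tnfrsf1b window held TEAD letters at 183 to 178 and at 62 to 57 bases before the start, the Tnfrsf11a window at 160 to 155 bases, and the Fas window held AP-1 letters at 211 to 205 bases. The Tnf window held neither. Both strands were searched, and no matches overlapped in these 4 windows. Promoter entries were found for 42 of the 53 members, as 48 windows. TEAD letters stood in the windows of 6 members (Ripk1, Tnfrsf11a, Tnfrsf1b, Tnfsf13, Tnfsf15 and Tnfsf18), and in 12.6% of all 32851 mouse windows of this length. AP-1 letters stood in those of 6 members (Fas, Tnfrsf8, Tnfrsf9, Tnfsf13, Tnfsf13b and Tnfsf14) and in 6.75% of all windows. The NF-kappaB motif, searched on both strands, stood in those of 3 members (Tnfrsf8, Tnfrsf9 and Traf3) and in 3.90% of all windows. A match is only a run of letters.

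Per kilobase of exon, the 8 highest members in WT mice on SD were mostly receptors and inhibitors of the death pathway, with Tnf as the only ligand among them. Tnfrsf1a, the widely expressed TNF receptor with a death domain, had the highest level, a mean of 1490 normalized counts per kb over the 2 libraries. Fas followed at 629, Tnfrsf12a (the TWEAK receptor) at 568, Birc3 at 431 and Tnf, the highest ligand, at 417. Birc2, Ripk1 and Cflar had 347, 343 and 341 per kb, and differences between neighbours in this order were not tested. In the knockout HFD libraries the order was led by Tnf at 3745 per kb, with Tnfrsf1a at 1108, Tnfrsf1b at 862 and Tnfsf9 at 811.

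**Figure D1:**
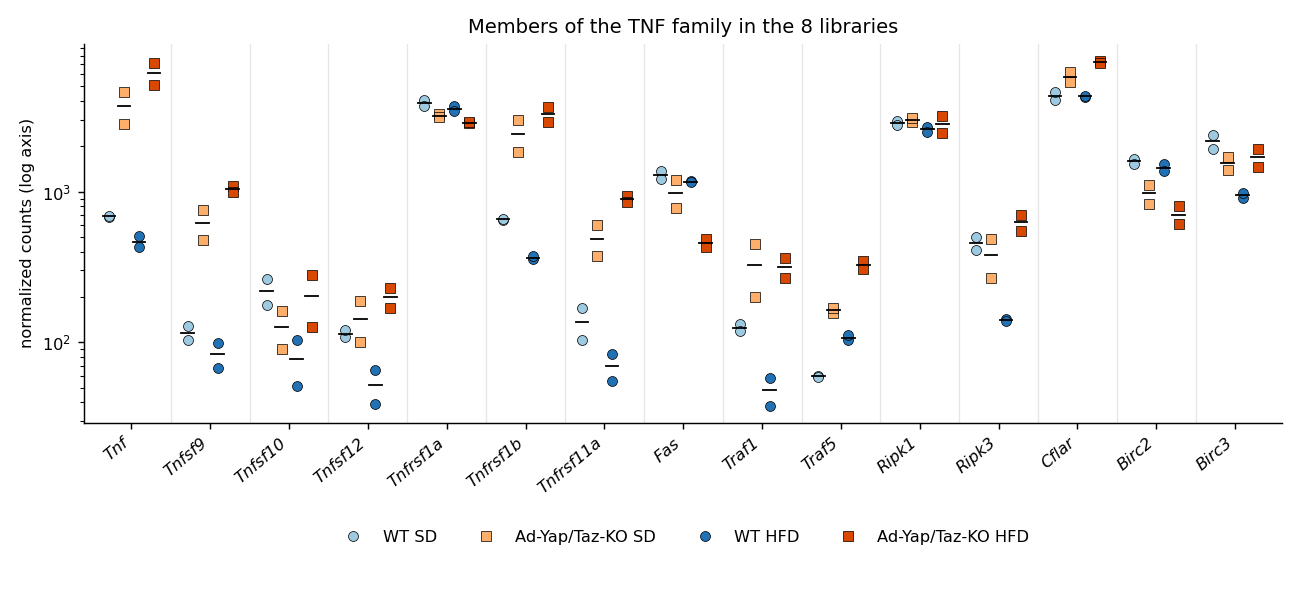
Normalized counts (log axis) of 15 members in each of the 8 libraries, with 1 point per library and a bar at the mean of each group. Tnf, Tnfsf9, Tnfrsf1b and Tnfrsf11a lie higher in all 4 Ad-Yap/Taz-KO libraries than in all 4 WT libraries, Fas is lowest in the Ad-Yap/Taz-KO HFD libraries (432 and 483), and Ripk3 is lowest in the WT HFD libraries (138 and 142).

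The first comparison asks how the adipocyte preparations of Ad-Yap/Taz-KO mice, which still held Yap1 and Wwtr1 transcripts, differ from those of WT mice on HFD. Of 48 tested members, 21 were called, 19 higher and 2 lower in Ad-Yap/Taz-KO mice. Calls required an adjusted p (Benjamini-Hochberg) no higher than 0.05 together with a log2 difference of 0.59 or more in either direction. Among all tested genes 32.2% were called, 17.1% higher and 15.1% lower, whereas 43.8% of members were. The 21 include Fasl and Tnfsf4, which passed the filter on low values only through the knockout libraries, so part of that share comes from the filter. The median log2 fold change was 0.69 over the tested members and 0.09 over all genes. With the 2 libraries of WT HFD merged into a mean 13 were called, beside 18.3% of all genes, and Fasl, Tnfsf4, Tnfsfm13, Tnfsf10, Tnfsf13b, Tnfrsf10b, Tnfrsf13b and Traf4 were not among them. Without the filter on low values 14 were called, beside 16.5% of all genes. Under quantile normalization 14 members were higher and 4 lower, beside 14.0% and 13.7% of all genes. The macrophage markers moved with this contrast, since 11 of 12 were higher, at a median log2 fold change of 4.03 over the 12. Their sum was 9.09 times that in WT, a ratio lowered by Mertk, with 1238 and 1291 normalized counts in the WT HFD libraries. Mertk was the exception, at -0.22 on the log2 scale with an adjusted p of 0.385. Of the fibroblast and progenitor markers 6 of 8 were higher, with sums of 70272 and 78991 against 22012 and 22493, and 9 of 10 adipocyte markers were lower, with sums of 190080 and 95513 against 384146 and 375938. The part of these cells in the values below was not tested.

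**Figure D2:**
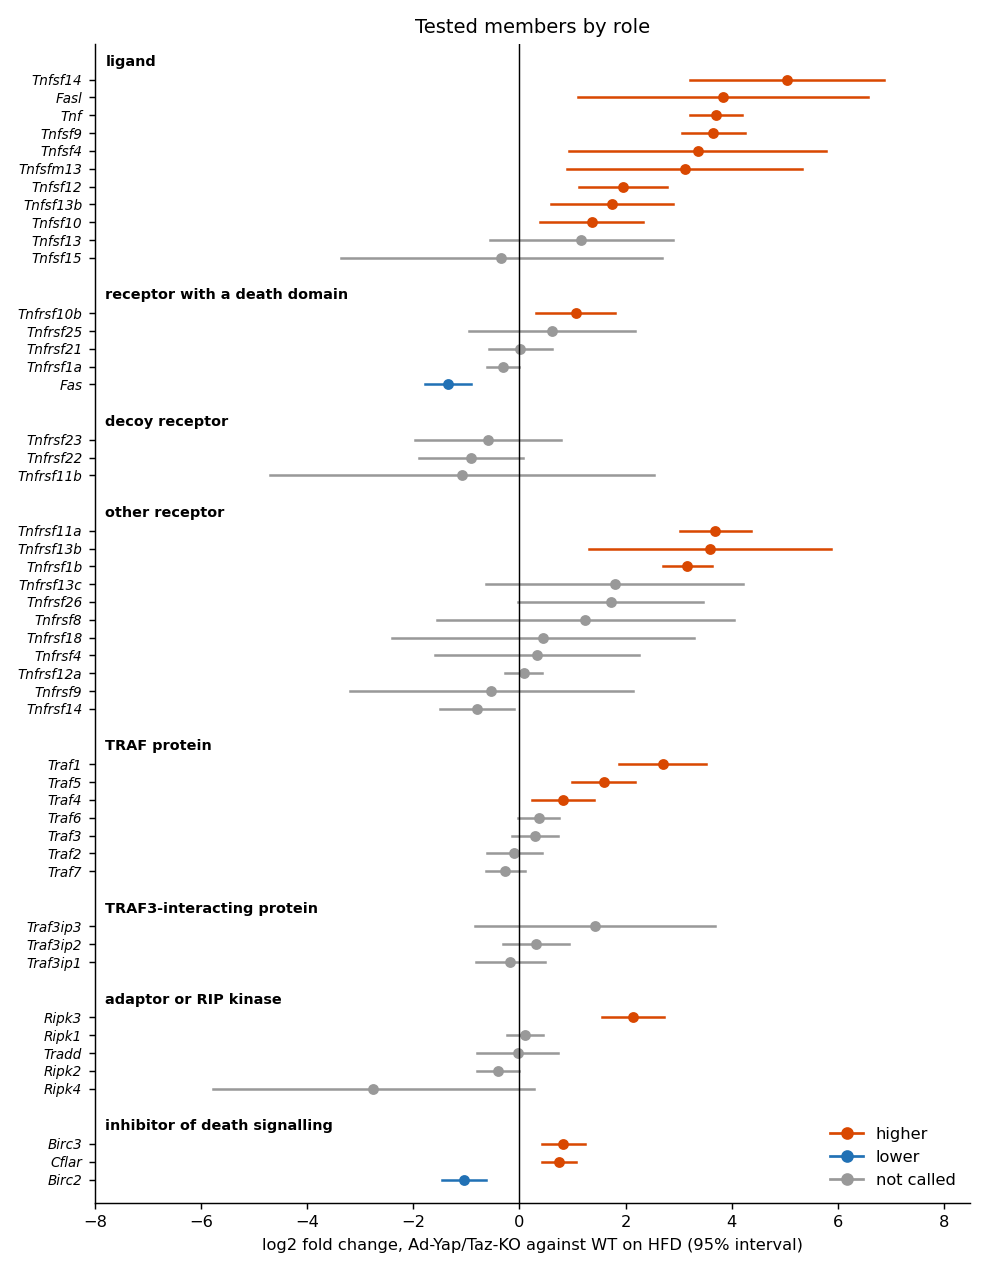
Knockout difference from WT on HFD as log2 fold change (x axis) for the 48 tested members, grouped by role, with the 95% interval of limma as bars. Of 11 tested ligands 9 are called higher, beside 17.1% of all tested genes. That count is no result, since Fasl and Tnfsf4 passed the filter only through the knockout libraries. Fas and Birc2 are the 2 members called lower, beside 15.1% of all tested genes.

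Of 14 ligands, 11 passed the filter of a mean of at least 5 and could be tested, and 9 of these were called higher on HFD. Fasl and Tnfsf4 passed only through the knockout libraries, since in the 2 WT HFD and then the 2 WT SD libraries Fasl had 0, 0, 11 and 0 and Tnfsf4 had 5, 0, 0 and 0 normalized counts, so the share of ligands called is no result. Without that filter Fasl (adjusted p = 0.0681), Tnfsf4 (0.0631), Tnfsfm13 (0.0919) and Tnfsf10 (0.106) were no longer called by limma. Tnf, the founding cytokine of the family (ENSMUSG00000024401, chr17:35199381-35202007, GRCm38), had 7136 and 5139 normalized counts in the Ad-Yap/Taz-KO HFD libraries and 429 and 504 in the WT HFD libraries. The groups lay far apart, with a log2 fold change of 3.70 (95% interval 3.21 to 4.19, limma adjusted p = 2.48e-07). Tnfsf9, which encodes the 4-1BB ligand of T cell costimulation (chr17:57105385-57107757), had 1092 and 1001 against 99 and 68. Both knockout libraries lay well above both WT libraries, at a log2 fold change of 3.66 (3.06 to 4.25, limma adjusted p = 1.15e-06). Of its exon bases 14.9% lie opposite the noncoding gene Gm11110, and although the library kit was a stranded one, the strand setting of the counting is not stated.

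Tnfsf14, the LIGHT cytokine of lymphotoxin-like signalling, had 58 and 54 normalized counts in the knockout and 2 and 0 in WT, and its log2 fold change was 5.04 (3.21 to 6.86, limma adjusted p = 0.000662). At so few counts in WT the size depends on the pseudocount. Tnfsf12, which encodes TWEAK, had 170 and 231 against 65 and 39 and a log2 fold change of 1.95 (limma adjusted p = 0.00191). About 48.3% of its exon bases are shared with the readthrough gene Tnfsfm13, and the authors' counting left out reads that fell in both genes, so its level is uncertain.

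Tnfsf10, which encodes TRAIL, had 127 and 278 normalized counts in the knockout HFD libraries and 103 and 51 in the WT HFD libraries, at a log2 fold change of 1.36 (limma adjusted p = 0.033). The groups did not overlap but the 2 knockout libraries differed by more than the gap between groups. This call was lost without Ad-Yap/Taz-KO HFD replicate 2 (0.80, adjusted p = 0.298), without WT HFD replicate 2 (0.86, adjusted p = 0.272), and narrowly without either WT SD library (1.36, adjusted p = 0.0529 and 0.0516). Tnfsf13b, the B cell survival factor BAFF, had 35 and 68 against 16 and 12, at a log2 fold change of 1.75 (limma adjusted p = 0.0233). It was no longer called without Ad-Yap/Taz-KO HFD replicate 2 (1.28, adjusted p = 0.216), WT HFD replicate 1 (1.94, adjusted p = 0.0504) or WT HFD replicate 2 (1.55, adjusted p = 0.106).

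The remaining higher ligands rested on few counts. Fasl, the ligand of Fas, had 11 and 16 normalized counts in the knockout and 0 in both WT HFD libraries, which makes it at least 4.50-fold higher against the mean floor of 3 reads per library (limma adjusted p = 0.0324). Tnfsf4, the OX40 ligand, had 29 and 20 against 5 and 0 (log2 fold change 3.36, limma adjusted p = 0.0343). Tnfsfm13 had 32 and 15 against 6 and 0 (3.12, limma adjusted p = 0.0321), and 44.0% of its exon bases are shared with Tnfsf13 and 32.7% with Tnfsf12. Fasl was no longer called without any 1 of the 4 HFD libraries (adjusted p = 0.084 to 0.162). Tnfsf4 lost its call without Ad-Yap/Taz-KO HFD replicate 1 (3.10, adjusted p = 0.15), Ad-Yap/Taz-KO HFD replicate 2 (3.61, adjusted p = 0.119) or WT HFD replicate 2 (2.06, adjusted p = 0.22). Tnfsfm13 lost it without Ad-Yap/Taz-KO HFD replicate 1 (2.60, adjusted p = 0.168), Ad-Yap/Taz-KO HFD replicate 2 (3.64, adjusted p = 0.0735), WT HFD replicate 2 (1.71, adjusted p = 0.232) or either WT SD library (3.12, adjusted p = 0.0517 and 0.0519). Summed T and NK cell markers, which include cells that make these ligands, were 111 and 107 in the knockout HFD libraries and 33 and 21 in WT, and 2 of 5 tested were called higher. Single markers had few counts and did not all follow the sum. Cd3d had 4 and 5 in the knockout and 0 in both WT HFD libraries. Cd8a had 6 and 6 against 4 and 8, and Nkg7 had 2 and 0 against 4 and 0. The part of T and NK cells in these values was not tested.

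The receptors with a death domain did not move together. Fas (chr19:34290659-34327770), the receptor of Fas ligand, had 483 and 432 normalized counts in the knockout HFD libraries and 1179 and 1151 in WT. Its log2 fold change was -1.35 (-1.79 to -0.91, limma adjusted p = 0.000294), and each knockout library was below each WT library. Tnfrsf10b, the only TRAIL death receptor in mice, had 586 and 1179 against 409 and 389, at 1.06 (limma adjusted p = 0.0312). That call rests on Ad-Yap/Taz-KO HFD replicate 2, without which it was 0.55 (adjusted p = 0.301), and it was also lost without WT HFD replicate 1 (1.09, adjusted p = 0.117) or replicate 2 (1.02, adjusted p = 0.147). Tnfrsf1a, the main receptor of soluble TNF, had 2841 and 2902 against 3684 and 3407. Its log2 fold change was -0.30 with an interval of -0.61 to 0.00 (limma adjusted p = 0.113), which does not show that the groups were alike. The 3 decoy receptors were not called, at -1.08 to -0.60, and none had an unadjusted p under 0.05 by limma.

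Among the other receptors 3 of 11 tested were higher on HFD, beside 17.1% of all tested genes. Tnfrsf1b, the TNF receptor without a death domain (chr4:145213463-145246870), had 3665 and 2915 normalized counts in the knockout and 356 and 373 in WT. Its log2 fold change was 3.16 (2.70 to 3.62, limma adjusted p = 4.71e-07), and no library of one group came near the other. Tnfrsf11a, which encodes the receptor RANK of osteoclast precursors and dendritic cells (chr1:105780718-105847981), had 938 and 848 against 55 and 84, at 3.69 (3.02 to 4.37, limma adjusted p = 2.9e-06). Tnfrsf13b, the B cell receptor TACI, had 65 and 72 against 2 and 10, at 3.59 (limma adjusted p = 0.0189). It was no longer called without Ad-Yap/Taz-KO HFD replicate 1 (3.67, adjusted p = 0.0688), Ad-Yap/Taz-KO HFD replicate 2 (3.52, adjusted p = 0.105) or WT HFD replicate 1 (2.66, adjusted p = 0.14).

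Of the TRAF proteins, the adaptors of receptors without a death domain, 3 of 7 were higher on HFD, beside 17.1% of all tested genes. Traf1 had 268 and 361 normalized counts against 38 and 58 (log2 fold change 2.70, limma adjusted p = 0.000178). Traf5 had 344 and 307 against 103 and 112 (1.59, limma adjusted p = 0.000809). Traf4 had 306 and 370 against 242 and 148 (0.83, limma adjusted p = 0.0305), and was not called without Ad-Yap/Taz-KO HFD replicate 2 (0.69, adjusted p = 0.165) or WT HFD replicate 2 (0.47, adjusted p = 0.292). Traf2, the adaptor of both TNF receptors, had 158 and 202 against 182 and 200, with a log2 fold change of -0.09 and an interval of -0.62 to 0.43.

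At the level of the death complexes, Ripk3 was higher while its partner Ripk1 was not called. Ripk3, the kinase that starts necroptosis (chr14:55784996-55788857), had 550 and 698 normalized counts in the knockout HFD libraries and 142 and 138 in WT, at a log2 fold change of 2.14 (1.55 to 2.73, limma adjusted p = 8.24e-05). Ripk1 had 2433 and 3177 against 2685 and 2494, at 0.10 (-0.24 to 0.45), and Tradd, the adaptor of Tnfrsf1a, had 116 and 78 against 97 and 98, at -0.03 (-0.81 to 0.74).

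The inhibitors moved in opposite directions. Cflar, which encodes the caspase-8 inhibitor cFLIP (chr1:58711508-58758884), had 7342 and 7124 normalized counts against 4262 and 4341 and was higher by 0.75 on the log2 scale (0.43 to 1.06, limma adjusted p = 0.00179). Birc3 (chr9:7848699-7873186) had 1455 and 1926 against 907 and 979 and was higher by 0.83 (limma adjusted p = 0.00424). Without WT HFD replicate 1 it was 0.77, with an adjusted p of 0.0525. Birc2 (chr9:7818227-7837064) had 611 and 799 against 1520 and 1366, and its log2 fold change was -1.04 (-1.45 to -0.63, limma adjusted p = 0.00118). Birc2 and Birc3 lie 11.6 kb apart, and the gap to Yap1, one of the deleted genes, is 94.9 kb for Birc2 and 58.8 kb for Birc3. A part of the neighbouring deletion in these values was not tested.

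On SD, 8 of 48 members were called between genotypes, 7 higher and 1 lower, which is 16.7% of members beside 4.71% of all tested genes (3.21% higher and 1.50% lower). The 7 include Tnfsf4, which passed the filter on low values only through the knockout libraries. Without that filter 6 were called, beside 1.44% of all genes. The median log2 fold change was 0.19 over the members and -0.01 over all genes, and scaling to equal totals gave 7 higher and 0 lower (15 at an unadjusted p under 0.05 by limma, and 2.88% and 1.51% of all genes called). Tnf had 4600 and 2791 normalized counts in the knockout SD libraries and 680 and 688 in WT (log2 fold change 2.39, 1.90 to 2.88, limma adjusted p = 4.82e-05). Tnfsf9 had 755 and 474 against 128 and 104 (2.36, limma adjusted p = 0.00023), and Tnfrsf1b had 2967 and 1823 against 651 and 659 (1.83, limma adjusted p = 0.000236). All 3 were higher in both knockout libraries than in both WT libraries.

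The 2 knockout SD libraries differed by 1.65-fold for Tnf, 1.63-fold for Tnfrsf1b and 1.59-fold for both Tnfsf9 and Tnfrsf11a, and their summed markers differed in the same direction by 1.74-fold for macrophages, 1.75-fold for both endothelial and dendritic cells and 1.58-fold for fibroblasts and progenitors. The adipocyte sum was 0.69 times as high in replicate 1 as in replicate 2, and the sums for T and NK cells (0.795 times), B cells (0.663) and mesothelial cells (0.233) were also lower there, as were Fas (0.651) and Birc2 (0.747). The part of these cells was not tested. Over the 12 macrophage markers, 10 were higher in the knockout on SD and the sum was 3.90 times that in WT. Tnfrsf11a had 596 and 375 normalized counts against 168 and 104 (1.83, limma adjusted p = 0.00357), and was no longer called without WT SD replicate 2 (1.49, adjusted p = 0.0757).

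Further down the route, Traf3, which restrains noncanonical NF-kappaB signalling, had 778 and 648 normalized counts in the knockout SD libraries and 340 and 347 in WT (log2 fold change 1.05, limma adjusted p = 0.00749). Traf5 had 157 and 169 against 60 and 59 (1.44, limma adjusted p = 0.00785). Traf3 was not called without Ad-Yap/Taz-KO SD replicate 1 (0.91, adjusted p = 0.0516), WT SD replicate 1 (1.03, adjusted p = 0.0689) or WT SD replicate 2 (1.06, adjusted p = 0.0734), and Traf5 not without WT SD replicate 1 (1.45, adjusted p = 0.0503) or replicate 2 (1.43, adjusted p = 0.0639). Tnfsf4 had 22 and 20 against 0 in both WT SD libraries, at least 6.53-fold higher than the floor (limma adjusted p = 0.039). Tnfsf4 passed the filter of a mean of at least 5 only through the knockout libraries, so this call gives no support. Without that filter Tnfsf4 was not called (limma adjusted p = 0.104). It was lost without any 1 of the SD libraries (adjusted p = 0.125 to 0.169) and without either Ad-Yap/Taz-KO HFD library (0.0608 and 0.0686).

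Birc2 was the 1 member called lower on SD, with 833 and 1115 normalized counts against 1655 and 1522 (log2 fold change -0.72, limma adjusted p = 0.05). It sat at the threshold and was lost without either WT HFD library (adjusted p = 0.118 and 0.117), either WT SD library (0.267 and 0.214) or Ad-Yap/Taz-KO SD replicate 1 (-0.51, adjusted p = 0.209). Fas had 777 and 1194 against 1379 and 1216 on SD, at -0.43 (-0.86 to 0.01), so it was not shown to differ there. None of the 5 death-domain receptors was called by limma on SD, and none had an unadjusted p under 0.05.

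The next comparison is HFD against SD within a genotype. In WT mice 9 of 48 members were called, 2 higher and 7 lower on HFD, which is 18.8% of members beside 18.0% of all tested genes (8.74% higher and 9.22% lower). The median log2 fold change was -0.22 for members and -0.08 for all genes. Under quantile normalization 2 were higher and 4 lower, beside 4.55% and 7.1% of all genes. With the 2 libraries of WT HFD merged into a mean only Ripk3 and Birc3 were called, beside 2.87% of all genes. Ripk3 had 142 and 138 normalized counts on HFD and 503 and 409 on SD (-1.69, limma adjusted p = 0.00198), and Birc3 had 907 and 979 on HFD and 2390 and 1924 on SD (-1.19, limma adjusted p = 0.00165). Both were lower in each HFD library than in each SD library. In the same libraries 10 of 12 macrophage markers were lower on HFD, and 4 of 8 fibroblast and progenitor markers were lower, with sums of 22012 and 22493 on HFD against 36298 and 30049 on SD. Of 6 endothelial markers 4 were lower (16903 and 17265 against 33327 and 26801), and 2 of 10 adipocyte markers were higher (384146 and 375938 against 211752 and 218344). The part of those cells was not tested.

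The other 5 lower members were Tnfsf10 (103 and 51 against 262 and 177, log2 fold change -1.56), Traf1 (38 and 58 against 132 and 118, -1.39), Tnfsf14 (2 and 0 against 20 and 6, -2.81), Tnfrsf1b (356 and 373 against 651 and 659, -0.84) and Tnfrsf11a (55 and 84 against 168 and 104, -0.95), with limma adjusted p of 0.0302, 0.0235, 0.0352, 0.0173 and 0.0496. Each of these 5 was lost on leaving out at least 1 library, at adjusted p up to 0.244, 0.165, 0.248, 0.116 and 0.329. For Traf1 and Tnfrsf1b these were all 4 WT libraries, for Tnfsf10 the 2 WT SD libraries and WT HFD replicate 2, for Tnfsf14 WT SD replicate 1, WT HFD replicate 2 and both Ad-Yap/Taz-KO HFD libraries, and for Tnfrsf11a the 4 WT and both Ad-Yap/Taz-KO HFD libraries. Traf3 (735 and 576 against 340 and 347, 0.92) and Traf5 (103 and 112 against 60 and 59, 0.84) were higher on HFD, at limma adjusted p of 0.00838 and 0.0476. Each was lost without either WT SD library and without WT HFD replicate 1, and Traf5 also without WT HFD replicate 2 or either Ad-Yap/Taz-KO HFD library.

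Scaling every library to an equal total had an effect here. The median over all genes shifted by -0.41 on the log2 scale in this contrast, 15 members were called lower and 0 higher, beside 18.9% of all genes lower and 2.48% higher, and 26 had an unadjusted p under 0.05 by limma. Traf3 was then at 0.51 (adjusted p = 0.0819) and Traf5 at 0.43 (adjusted p = 0.276). The same scaling shifted the knockout contrast on HFD by 0.38 and called 21 members higher and 2 lower, beside 24.5% of all genes higher and 7.23% lower.

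In Ad-Yap/Taz-KO mice, 1 member was called between diets, which is 2.08% of members beside 1.07% of all tested genes (0.383% higher and 0.691% lower). Fas had 483 and 432 normalized counts on HFD and 777 and 1194 on SD, at a log2 fold change of -1.07 (-1.51 to -0.64, limma adjusted p = 0.0268). The call was lost without Ad-Yap/Taz-KO SD replicate 2 (-0.77, adjusted p = 0.231), Ad-Yap/Taz-KO HFD replicate 2 (-0.99, adjusted p = 0.132), or any of the 4 WT libraries, with adjusted p of 0.0709 to 0.109. With those of WT HFD merged it was also lost (adjusted p = 0.108). Without Ad-Yap/Taz-KO SD replicate 1, 4 members were called, beside 5.11% of all genes. Fas stayed lower, and Ripk3 (1.20), Tnf (1.12) and Tnfrsf1b (0.84) were then higher on HFD. The macrophage sum was 17707 in the remaining knockout SD library and 34018 and 31399 on HFD. With all libraries, 1 of 12 macrophage and 2 of 8 fibroblast and progenitor markers were called higher between diets in the knockout. No marker of the other lists was called. The part of these cells was not tested.

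The test of whether the knockout difference itself depended on the diet called 10 of 48 members, 8 with a larger value on HFD and 2 with a smaller one, which is 20.8% of members beside 17.4% of all tested genes (8.69% and 8.73%). Scaling to equal totals gave 11 and 0 (19 at an unadjusted p under 0.05 by limma, and 13.8% and 3.27% of all genes called), with Fas at -0.49 (adjusted p = 0.208) and Tnfrsf14 at -1.07 (adjusted p = 0.133). With the 2 libraries of WT HFD merged into a mean Ripk3 alone was called, beside 2.75% of all genes. Ripk3 had the largest such difference among the 10, 2.46 on the log2 scale (1.63 to 3.30, limma adjusted p = 0.00358), since the knockout exceeded WT on HFD but not on SD, where it had 486 and 269 against 503 and 409. Tnfsf10 was at 2.20 (limma adjusted p = 0.0335), Tnfrsf11a at 1.86 (0.0156), Tnfsf12 at 1.69 (0.0486), Tnfrsf1b at 1.33 (0.0133), Tnf at 1.31 (0.0177), Birc3 at 1.30 (0.00883) and Tnfsf9 at 1.29 (0.0387).

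**Figure D3:**
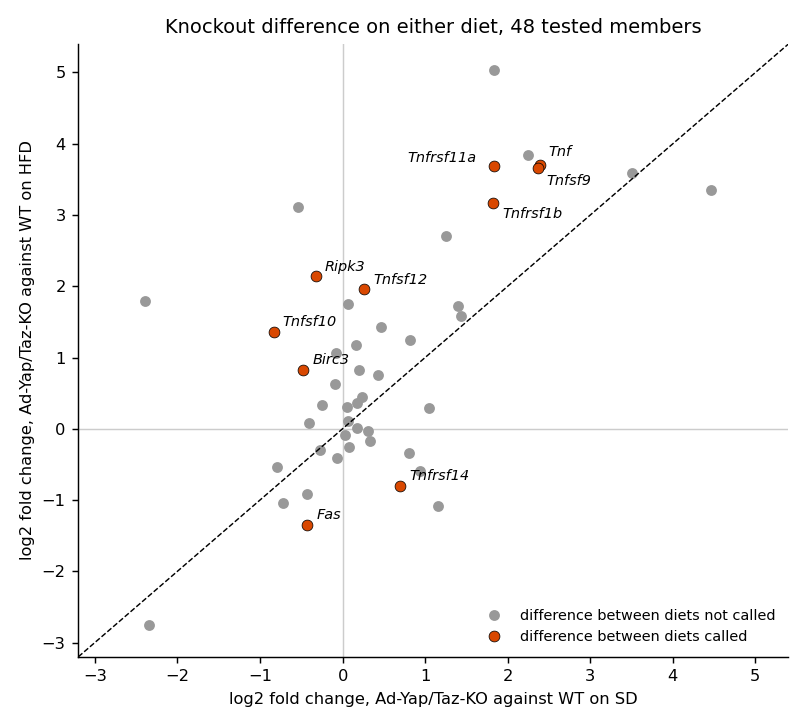
Knockout difference from WT as log2 fold change on SD (x axis) and on HFD (y axis) for the 48 tested members, where the dashed line marks equal values. The 10 members whose difference between diets was called are labelled, and Ripk3, Tnfsf10 and Birc3 lie below 0 on SD and above 0 on HFD.

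Tnfrsf14, the receptor HVEM of LIGHT, gave -1.50 (-2.48 to -0.51, limma adjusted p = 0.0399), with 59 and 71 normalized counts in the knockout HFD libraries, 99 and 130 in WT HFD, 144 and 166 in knockout SD and 91 and 99 in WT SD. It was not called in either diet alone. Fas gave -0.92 (limma adjusted p = 0.0426). In the interaction, 9 of the 10 calls (all but Ripk3) were lost on leaving out at least 1 library. All 9 were lost without WT SD replicate 1, at adjusted p of 0.0618 (Birc3) to 0.146 (Tnfsf10), and the highest adjusted p without any 1 library was 0.171, for Tnfsf12 without WT HFD replicate 2. For Tnf this was so without any of WT HFD replicate 1 (1.20, adjusted p = 0.0858), WT HFD replicate 2 (1.43, 0.0639), Ad-Yap/Taz-KO SD replicate 2 (0.95, 0.0587), WT SD replicate 1 (1.32, 0.0806) or WT SD replicate 2 (1.30, 0.0625).

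Set beside the macrophage marker sum in each library, the members fell into different patterns. Per 1000 normalized counts of the macrophage sum, Tnfrsf1b had 104 and 106 in WT SD, 96.5 and 103 in knockout SD, 101 and 102 in WT HFD and 108 and 92.8 in knockout HFD. With this sum its ratio varied little over libraries that differed widely in both values. The sum includes Mertk, which was not called higher on HFD. Mertk gave 1238 and 1291 of the 3522 and 3674 normalized counts in WT HFD. In knockout HFD it gave 986 and 1195 of the 34018 and 31399. Leaving Mertk out would raise the WT HFD ratios most, so the even ratio of Tnfrsf1b depends on that marker. Tnf had 109 and 111 in WT SD, 150 and 158 in knockout SD, 122 and 137 in WT HFD, and 210 and 164 in knockout HFD. Each knockout library lay above each WT library of the same diet, but on HFD that order depends on Mertk being in the sum. Ripk3 had 80.7 and 66.0, 15.8 and 15.2, 40.3 and 37.6, and 16.2 and 22.2 in the same order of groups, and Birc3 had 384 and 310, 55.5 and 79.0, 258 and 266, and 42.8 and 61.3. These ratios share the macrophage sum and describe the libraries with no test.

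**Figure D4:**
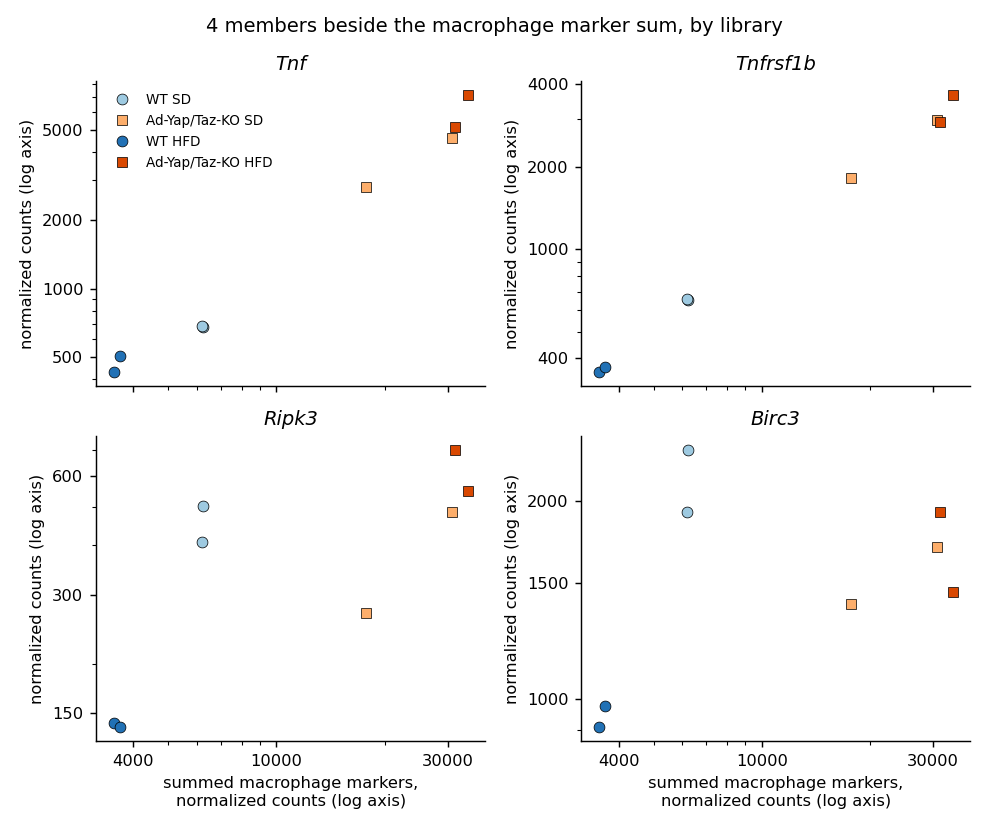
Normalized counts of Tnf, Tnfrsf1b, Ripk3 and Birc3 (y axis, log) against the sum of 12 macrophage markers (x axis, log) in each of the 8 libraries. The 4 libraries with the highest macrophage sums, all Ad-Yap/Taz-KO, hold the 4 highest values of Tnf and of Tnfrsf1b, whereas Birc3 is highest in WT SD replicate 1 (2390), whose macrophage sum is 6230.

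Genes of the family that the name rule misses and a list of signalling partners were examined the same way. On HFD, Cd40, the costimulatory receptor of antigen-presenting cells, had 566 and 488 normalized counts in the knockout and 39 and 64 in WT (3.37, limma adjusted p = 9.79e-06), Ltbr, the lymphotoxin beta receptor, was lower at -0.78 (limma adjusted p = 0.00311), and Ltb, its lymphocyte-made ligand, with 22 and 44 against 1 and 0, was higher at 4.51 (limma adjusted p = 0.0031). Of 26 tested signalling partners 5 were higher and 4 lower, a share near the 32.2% of all tested genes called in this contrast (17.1% higher and 15.1% lower), so the count is no result about the list. Macrophage markers were higher in the same libraries, as given above. The higher partners were the inflammatory kinase Ikbke (683 and 701 against 117 and 103, 2.65), Adam17 (0.77), Ikbkb (0.76), Rnf31 (0.75) and Tnfaip3 (0.62), and the lower ones were Ikbkg (547 and 372 against 1080 and 1196, -1.33), Tab3 (-1.21), Map3k5 (-0.67) and Map3k7 (-0.65). Adam17, the protease that sheds TNF, was also higher on SD (0.74, limma adjusted p = 0.0127), as was Cd40 (1.53, limma adjusted p = 0.0161).

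In WT mice, Ikbke (-1.17), Tnfaip3 (-0.87), Rnf31 (-0.87) and Ltb (-3.51) were lower on HFD, and Ikbkg (0.98), Tab3 (0.77) and Map3k7 (0.61) were higher. This contrast and the knockout contrast on HFD share the WT HFD libraries.

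Of the 48 tested members, 27 were not called in the knockout contrast on HFD, where the widest interval was that of Tnfrsf11b (-4.69 to 2.54). The 5 members below the mean of 5, Tnfrsf17, Tnfrsf19, Tnfsf8, Tnfsf11 and Tnfsf18, had 0 to 12 normalized counts in every library.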

How the data were processed

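RNA of isolated epididymal white adipocytes was sequenced (single-end) after ribosomal RNA depletion with a stranded library kit. After trimming (Reaper), the authors aligned reads with STAR 2.5.2b to the GRCm38 genome, counted exonic reads per gene with featureCounts 1.5.1, leaving out reads over several genes or places, and used DESeq2 1.14.1. The deposited values are a score: the authors scaled each library's counts by its size factor and then rounded them, so count models were not run. Whether counting used the strand is not given in the sources used here. Groups came from the sample labels. Genes with a mean of at least 5 were tested with limma 3.58.1 (trend, R 4.3.3), using log2(value + 1), in 1 fit of the 4 group means, with Benjamini-Hochberg adjustment over 18800 genes. The fit was tested on simulated data. Fold changes are on that scale and understate low genes. Exon lengths and overlaps came from GENCODE vM21, promoters from RefSeq. Every called member and the TNF, FAS and TRAIL death-receptor route were named. The members and lists were chosen with earlier results of these data known. Alternatives were other pseudocounts, filters and scalings, fewer groups, robust eBayes, a replicate block, averaging the 2 WT HFD libraries, and leaving out each library. Python 3.11.15, numpy 2.4.6, pandas 2.3.3 and matplotlib 3.10.9 made tables and figures.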

Additional observations from a re-analysis of the deposited data

Results flagged for a closer look

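The knockout difference itself differed between diets for 10 members by the interaction test of limma, which is 20.8% of members beside 17.4% of all tested genes, and 9 of these 10 calls (all but Ripk3) were lost on leaving out at least 1 library. Each is listed here as its value on HFD minus that on SD on the log2 scale. It was 2.46 for Ripk3, 2.20 for Tnfsf10, 1.86 for Tnfrsf11a, 1.69 for Tnfsf12, 1.33 for Tnfrsf1b, 1.31 for Tnf, 1.30 for Birc3, 1.29 for Tnfsf9, -0.92 for Fas and -1.50 for Tnfrsf14. In the same test 11 of 12 macrophage markers, 5 of 6 endothelial markers and 7 of 8 fibroblast and progenitor markers were called higher and 8 of 10 adipocyte markers lower, and their part in these values was not tested.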

How the results depend on the processing

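Of the 21 members called between genotypes on HFD, 12 kept their call under every alternative that tested them, as did 3 of 8 on SD (Tnf, Tnfsf9 and Tnfrsf1b), 2 of 9 between diets in WT (Ripk3 and Birc3), and 1 of 10 in the interaction (Ripk3). No call changed direction. Each count below is followed by the share of all genes called under the same setting. Without the filter on low values, 14 members were called on HFD (16.5%), 3 between diets in WT (5.6%), 0 between diets in the knockout (0.00987%, and 12 members at an unadjusted p under 0.05 by limma) and 1 in the interaction (2.37%). Averaging the WT HFD libraries gave 13 members on HFD (18.3%), 2 between diets in WT (2.87%), 0 between diets in the knockout (0.149%, and 8 members at an unadjusted p under 0.05) and 1 in the interaction (2.75%). Scaling to the same total gave 15 between diets in WT (21.4%). With only the groups compared in the fit, 5 were called on SD (2.45%) and 0 between diets in the knockout (0%, and 8 members at an unadjusted p under 0.05). Leaving out 1 library at a time gave 14 to 21 members on HFD (19.3% to 34%), 3 to 8 on SD (2.03% to 5.44%), 2 to 10 between diets in WT (3.34% to 20.6%), 0 to 4 between diets in the knockout (0.0745% to 5.11%) and 1 to 11 in the interaction (2.82% to 22.6%). Scaling to the same total shifted the median of all genes by 0.43 in the interaction, and quantile normalization by -0.21 on HFD, 0.13 between diets in WT and -0.18 in the interaction. The cause of these changes was not tested.

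Deviations of same-numbered replicates correlated between groups at -0.107 to 0.040, so no shared effect of replicate number was seen. With 2 libraries per group this cannot settle whether the numbers mark pairs. With the replicate number as a block, 21 members were called on HFD (30.4%), 6 on SD (3.83%), 7 between diets in WT (15.6%), 0 between diets in the knockout (0.596%, and 10 members at an unadjusted p under 0.05) and 7 in the interaction (13.7%). Few counts limit the ligands below about 50 normalized counts.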

Other observations

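Other cell type lists moved less uniformly on HFD. Of 4 tested dendritic cell markers 1 was higher in Ad-Yap/Taz-KO mice, with sums of 1746 and 1554 normalized counts against 492 and 581 in WT. Itgax gave 1237 and 896 of these counts in the knockout and 67 and 52 in WT, so the sums differed mostly through that marker. Of 3 tested B cell markers 1 was higher (53 and 86 against 17 and 14), and 2 of 6 endothelial markers were higher (22036 and 34877 against 16903 and 17265). Of 4 tested mesothelial markers 1 was lower, and the sums were 13 and 151 in the knockout and 73 and 97 in WT. On SD, 1 dendritic cell marker was called higher in the knockout, with sums of 1835 and 1049 against 844 and 802. Itgax gave 1109 and 588 of these counts in the knockout and 65 and 79 in WT.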
